A study of Homo sapiens with 4 samples.

Results

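The 10 genes described here belong to the epithelial-mesenchymal transition (EMT) and were followed through 4 RNA-seq libraries of human breast cancer cells. They are the transcription factors SNAI1, SNAI2, TWIST1, ZEB1 and ZEB2, the cadherins CDH1, CDH2 and CDH11, and the mesenchymal markers VIM and FN1. They were taken by name, and all 10 of 10 were found among the 39261 genes of the tables. MDA-MB-231, a triple-negative breast cancer line of mesenchymal character, carried either a construct for knockdown of TMEM126A or a control vector (sh-NC). MCF10-Ca1a (Ca1a) is a tumorigenic line derived from MCF10A mammary epithelium, and it carried a construct for overexpression of TMEM126A or the control vector pCDH. TMEM126A encodes a transmembrane protein of the mitochondrial inner membrane. All constructs were delivered by lentivirus. The lines also differed in medium: MDA-MB-231 grew in L15 with fetal bovine serum, and Ca1a in DMEM/F12 with horse serum, insulin, epidermal growth factor, cholera toxin and hydrocortisone. The sources used here do not state whether cells were a single clone or how many hairpin sequences were used.

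Each group was 1 library of 20673373 to 21405193 reads, so differences between groups stand without replicates and without a test. All intervals are at 95% and cover counting error alone, not variation between cultures. TMEM126A itself stood at 22.9 normalized counts (reads divided by the library's size factor) with knockdown and 559 in the MDA-MB-231 control, and at 9381 with overexpression and 265 in the Ca1a control. In Ca1a the deposited values were whole reads, so 1 normalized count there is 1 read and the 2 libraries were not rescaled. The markers listed for the lines differed between the controls, not all in 1 direction. In FPKM (fragments scaled by transcript length and by mapped fragments), KRT5 stood at 0.281 in the MDA-MB-231 control and 336 in the Ca1a control, EPCAM at 3.10 and 131, and AXL at 230 and 10.1. The epithelial markers KRT8, KRT18, KRT17, TP63 and ITGB4 were also higher in Ca1a, but KRT19 stood at 163 in the MDA-MB-231 control and 1.04 in Ca1a, and KRT14 was under 0.3 in all libraries. Of the MDA-MB-231 markers, KRT81 was higher in Ca1a (192.5 and 491), CD44 and ERBB2 were under 2-fold apart, and the receptor genes ESR1 and PGR were under 0.3 FPKM. Of 14 markers of fibroblasts, immune cells, endothelium and adipocytes, 12 were under 2 FPKM in all 4 libraries, ADIPOQ was listed at 0 throughout, and the exceptions were CD68 (28.9 to 98.6 FPKM) and CD14 (1.35 to 4.65 FPKM). CD68 alone made up most of the summed level of these markers in each library. Their summed levels were 101 and 102 FPKM in the knockdown library and its control, and 35.4 and 40.0 FPKM in the overexpression library and its control. Among them, the endothelial marker PECAM1 had a treated over control ratio of 1.88 (interval 1.45 to 2.45) in the knockdown and 1.66 (1.39 to 1.98) in the overexpression, LUM one of 0.408 (0.226 to 0.710) in the knockdown, and CD68 one of 0.843 in the overexpression. Their part in the results below was not tested. In such bulk samples, fewer cells of a type and less RNA per cell cannot be told apart.

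In an EMT, epithelial cells give up E-cadherin junctions and apical-basal polarity and take on a motile, matrix-producing state. The zinc-finger factors SNAIL (SNAI1) and SLUG (SNAI2), the zinc-finger homeodomain factors ZEB1 and ZEB2, and the basic helix-loop-helix factor TWIST1 drive that program. SNAIL, SLUG and the ZEB proteins bind E-box sequences in the promoters of CDH1 and other epithelial genes and repress them. Cells that lose E-cadherin often gain N-cadherin (CDH2) or OB-cadherin (CDH11), the intermediate filament vimentin (VIM) and the matrix protein fibronectin (FN1), and many carcinoma cells hold intermediate states.

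The transcription factors divided between the lines. ZEB1 and ZEB2 were higher in MDA-MB-231 and at trace levels in Ca1a, while SNAI2 and TWIST1 were higher in Ca1a. The factor ZEB1 (chr10:31318495-31529814 on GRCh38, plus strand) stood at 8.07 FPKM in MDA-MB-231 with knockdown, 8.31 in the MDA-MB-231 control, 0.116 in Ca1a with overexpression and 0.132 in the Ca1a control. The MDA-MB-231 control thus held 63.2 times the FPKM of the Ca1a control, where 33 reads were counted against 2097. ZEB2 (chr2:144364364-144524583, minus strand), its paralog, stood at 1.38, 1.54, 0.0561 and 0.0708 FPKM in the same order, a ratio between the controls of 21.8. Both MDA-MB-231 libraries were above both Ca1a libraries for each ZEB gene.

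SNAI2 was the most abundant of the 5 factors in every library. Its levels were 13.1 FPKM with knockdown, 12.2 in the MDA-MB-231 control, 39.4 with overexpression and 63.8 in the Ca1a control, so the Ca1a control was 5.23 times the MDA-MB-231 control. TWIST1 (chr7:19020991-19117672, minus strand) had 0 reads in both MDA-MB-231 libraries, and 3.28 and 3.98 FPKM in the overexpression library and its control. In reads scaled to the library total, TWIST1 was at least 41.7-fold higher in the Ca1a control than in the MDA-MB-231 control, with the latter set to a floor of 3 reads in that library. SNAI1 (chr20:49982999-49988886, plus strand), whose protein turns over rapidly, was low everywhere, with 0.464, 0.853, 1.27 and 1.70 FPKM in the same order of libraries. Its controls were 1.99-fold apart, just under the 2-fold threshold used below.

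CDH1 and CDH11 stood at opposite ends in the lines. CDH1, which encodes the E-cadherin of epithelial adherens junctions (chr16:68737225-68835548, plus strand), stood at 0.332 FPKM with knockdown, 0.203 in the MDA-MB-231 control, 73.4 with overexpression and 73.6 in the Ca1a control. The Ca1a control was 362 times the MDA-MB-231 control, and 27 of 11363 genes (0.238%) differed as far in that direction. CDH11, the OB-cadherin gene of mesenchymal cells and osteoblasts, lies on the same chromosome (chr16:64943753-65126112, minus strand). It stood at 10.9 and 8.31 FPKM in the knockdown library and its control, at 0.00541 FPKM (1 read) in the overexpression library, and had 0 reads in the Ca1a control. In reads scaled to the library total it was at least 551-fold higher in the MDA-MB-231 control, with 3 reads as the floor of the Ca1a control. CDH2, the N-cadherin gene, was near the bottom in all libraries, at 0.247, 0.185, 0.0431 and 0.0442 FPKM in the same order. Among these 3 cadherins CDH11 was the most abundant in MDA-MB-231.

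VIM and FN1, the filament and the matrix gene, were both higher in MDA-MB-231 but sat far apart in Ca1a. VIM (chr10:17228259-17237593, plus strand) stood at 708 FPKM with knockdown, 721 in the MDA-MB-231 control, 74.8 with overexpression and 90.5 in the Ca1a control. It ranked 37 from the top of 19031 genes above 0 in the MDA-MB-231 control and 529 of 16715 in the Ca1a control. In Ca1a it was the most abundant of the 10 genes in both libraries, above CDH1 there. FN1 (chr2:215360440-215436172, minus strand) stood at 42.3, 39.4, 0.958 and 1.002 FPKM in the same order, a ratio of 39.3 between the controls against 7.97 for VIM.

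**Figure D1:**
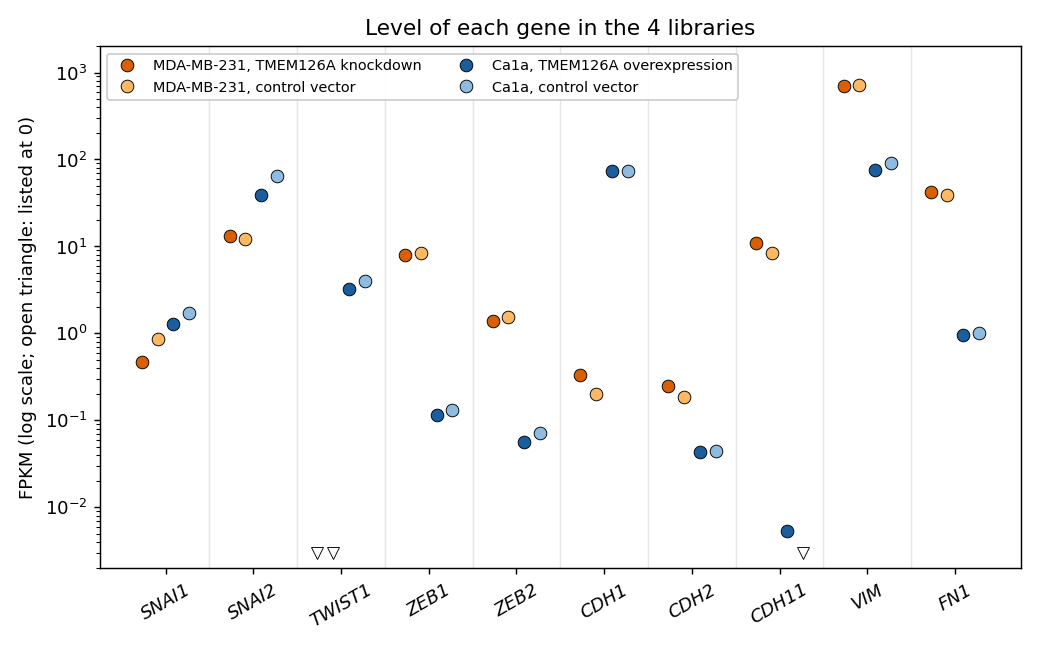
FPKM of each of the 10 genes in each of the 4 libraries, on a logarithmic vertical axis, 1 point per library. Open triangles at the lower edge mark genes listed at 0; CDH1 lies above 70 FPKM in both Ca1a libraries and below 1 FPKM in both MDA-MB-231 libraries, and VIM is high in all 4.

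Ordered by FPKM, the MDA-MB-231 control read VIM, FN1, SNAI2, then CDH11 and ZEB1 at the same 8.31, then ZEB2, SNAI1, CDH1, CDH2 and TWIST1. CDH1 and CDH2 rested there on 34 and 29 reads, so this depth does not settle their order. The Ca1a control read VIM, CDH1, SNAI2, TWIST1, SNAI1, FN1, ZEB1, ZEB2, CDH2 and CDH11. ZEB1, ZEB2 and CDH2 rested there on 33, 27 and 6 reads.

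Of the 10 genes, 8 had a mean of at least 1 FPKM over the 2 controls, and 7 of these were at least 2-fold apart on FPKM with 0.1 added. ZEB1, CDH11, VIM and FN1 were higher in MDA-MB-231, and SNAI2, TWIST1 and CDH1 in Ca1a. The background was 37.4% of 11363 genes at least 2-fold apart, with 24.4% higher in MDA-MB-231 and 12.9% higher in Ca1a. At 10-fold the count was 5 of the 8 (ZEB1, CDH11, FN1, TWIST1 and CDH1) against a background of 9.57% (6.28% higher in MDA-MB-231, 3.29% in Ca1a). A gene high in 1 line alone passes the filter by that level, so these counts are a description. ZEB2 and CDH2 had means under 1 FPKM. Origin, medium and control vector all differ between the controls, and their parts in these differences cannot be told apart.

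Most epithelial genes known to be repressed in an EMT were, like CDH1, higher in Ca1a. Of 24 listed, 20 had a mean of at least 1 FPKM over the controls, and 19 of these were at least 2-fold higher in Ca1a, with CLDN4, a tight junction claudin, the 1 under 2-fold. CLDN3, another claudin with a mean under 1 FPKM, went the other way, at 1.67 FPKM (34 reads) in the MDA-MB-231 control and 0 reads in Ca1a. The median log2 ratio of MDA-MB-231 over Ca1a was -4.31 for the list and 0.28 over all genes tested. ESRP1, a splicing factor of epithelial cells, stood at 0.0973 FPKM in the MDA-MB-231 control and 92.7 in the Ca1a control. RAB25, an apical recycling GTPase, stood at 0.0408 and 105 FPKM, the first from 1 read. OVOL2, a zinc-finger factor that represses ZEB1, had 0 reads in the MDA-MB-231 control and stood at 7.75 FPKM in Ca1a.

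Genes on the mesenchymal side were more often higher in MDA-MB-231 than in Ca1a, though not all were. The median log2 ratio of MDA-MB-231 over Ca1a was 2.57 for the mesenchymal list, against 0.28 over all genes tested. For the fibronectin receptor and assembly list it was 2.08. Over all genes tested, 24.4% were at least 2-fold higher in MDA-MB-231 and 12.9% in Ca1a. Of 23 mesenchymal genes listed, 13 had a mean of at least 1 FPKM. Of these, 9 were at least 2-fold higher in MDA-MB-231, 3 were under 2-fold, and ACTA2, a smooth muscle actin, was higher in Ca1a. S100A4, a calcium-binding protein, stood at 215 FPKM in the MDA-MB-231 control and 2.24 in the Ca1a control. COL5A1, a fibrillar collagen, stood at 19.2 FPKM in MDA-MB-231 and was listed at 0 in Ca1a. Of 10 fibronectin receptor and assembly genes with a mean of at least 1 FPKM, 5 were at least 2-fold higher in MDA-MB-231 and 5 were under 2-fold. Among these 5, SDC2, a syndecan, stood at 5.23 and 0.0294 FPKM, and TGM2, a matrix crosslinking transglutaminase, at 161 and 6.50 FPKM.

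Other cadherins and factors also split between the lines. CDH3, the P-cadherin gene of basal epithelium, stood at 0.171 FPKM in the MDA-MB-231 control and 41.6 in the Ca1a control. CDH4 (R-cadherin) stood at 2.22 FPKM in MDA-MB-231 and was listed at 0 in Ca1a, and CDH24 stood at 7.83 and 0.519 FPKM. JUP, the plakoglobin of junctions, stood at 19.3 and 86.8 FPKM. The counts that follow stand against 24.4% of all genes tested at least 2-fold higher in MDA-MB-231 and 12.9% in Ca1a. Of 8 further EMT transcription factors with a mean of at least 1 FPKM, 1 was at least 2-fold higher in MDA-MB-231. In Ca1a 4 were, and 3 were under 2-fold. SOX4 stood at 0.899 and 8.09 FPKM, and KLF8 at 0.517 and 2.74. For 30 regulators of the SNAIL, SLUG, TWIST and ZEB factors the median log2 ratio was 0.19, against 0.28 over all genes. Of these 30, 9 were at least 2-fold higher in MDA-MB-231, 6 in Ca1a and 15 were under 2-fold, near those shares. The 6 include CSNK1E, listed at 45.6 and 141.5 FPKM in the MDA-MB-231 and Ca1a controls. Only 1 and 2 reads were counted for it there, so its FPKM and its reads do not match. TGFB1 and TGFB2, ligands that induce EMT, stood at 28.0 and 25.7 FPKM in MDA-MB-231, and at 2.28 and 0.529 FPKM in Ca1a.

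**Figure D2:**
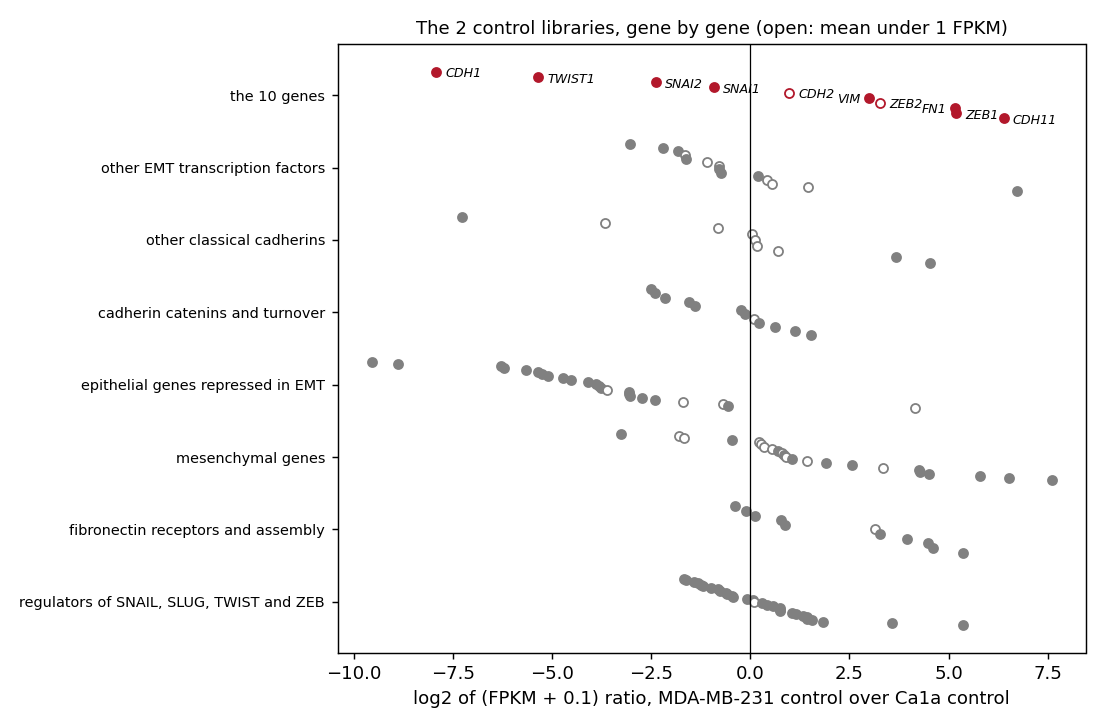
Difference between the 2 control libraries for the 10 genes and for 7 related gene lists, as log2 of the ratio of FPKM plus 0.1, MDA-MB-231 over Ca1a; each point is a gene listed above 0 in at least 1 control, and open points have a mean under 1 FPKM. The epithelial list lies to the left with CDH1, while the regulators lie around 0.

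Promoter sequences show where the E-box letters bound by SNAIL and ZEB factors occur beside these genes. The motif CAGGTG, which reads CACCTG on the other strand, was searched on both strands in RefSeq promoter windows on GRCh38.p14, each 250 bases before to 50 bases after a start. Of 35116 windows, 20.6% held at least 1 match, and of 27305 genes 24.1% had a window with 1. Of the 13 epithelial list genes with an entry, 9 had a match, without matching on base composition. Of the 10 genes, ZEB1, ZEB2, CDH2, VIM and FN1 were matched by symbol, with 12 windows in all, and CDH1 was not matched. ZEB1 had 7 of these windows. A match was found in 2 of the 12, both of ZEB1. A match is a run of letters and was not measured as a bound site here. The stretches below carry no annotated untranslated or coding base, run 5′ to 3′, and have matches in capitals. Each is a part of its window. The windows of RAB25, DSP and ZEB1 hold 2, 2 and 3 matches, of which 1 each lies in the stretch. RAB25 and DSP (a desmosomal plakin) are shown as epithelial genes with a match, and RAB25 has the largest difference between the controls on that list. ZEB1 is shown as the 1 of the 5 factors with the largest ratio in favour of MDA-MB-231, and VIM and FN1 as mesenchymal genes with none in the stretch.
RAB25, chr1:156060910-156061159, plus strand: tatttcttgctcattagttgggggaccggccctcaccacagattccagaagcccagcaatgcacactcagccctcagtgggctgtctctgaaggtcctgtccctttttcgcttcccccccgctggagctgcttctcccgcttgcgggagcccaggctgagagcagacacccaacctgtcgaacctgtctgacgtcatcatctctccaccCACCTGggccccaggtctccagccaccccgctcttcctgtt
DSP, chr6:7541421-7541574, plus strand: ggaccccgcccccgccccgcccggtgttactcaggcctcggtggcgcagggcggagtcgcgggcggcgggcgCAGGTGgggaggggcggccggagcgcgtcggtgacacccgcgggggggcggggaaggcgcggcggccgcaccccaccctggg
ZEB1, chr10:31318966-31319124, plus strand: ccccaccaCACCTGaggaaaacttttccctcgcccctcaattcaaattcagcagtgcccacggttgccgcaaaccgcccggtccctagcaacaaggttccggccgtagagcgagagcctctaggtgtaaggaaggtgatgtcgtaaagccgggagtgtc
VIM, chr10:17227991-17228240, plus strand: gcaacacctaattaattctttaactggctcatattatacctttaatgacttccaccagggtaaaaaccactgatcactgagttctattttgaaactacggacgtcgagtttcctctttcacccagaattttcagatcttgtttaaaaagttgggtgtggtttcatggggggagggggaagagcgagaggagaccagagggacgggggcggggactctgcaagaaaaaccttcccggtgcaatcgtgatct
FN1, chr2:215436173-215436318, minus strand: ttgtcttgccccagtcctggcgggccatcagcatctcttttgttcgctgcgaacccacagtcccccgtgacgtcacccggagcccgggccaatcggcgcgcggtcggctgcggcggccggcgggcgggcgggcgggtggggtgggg

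In MDA-MB-231 with TMEM126A knockdown, CDH11 and FN1 were higher than in the control beyond counting error. None of the 10 genes was lower beyond it, and none was 1.5-fold apart by the size rule (a ratio of at least 1.5 on counts plus 1, with an interval leaving out 1). Of the 10 genes, 9 had a mean of at least 20 normalized counts, TWIST1 being the exception with 0 reads in both libraries. Of these 9, 2 were higher and 7 within counting error. Over all 13292 genes tested, 28.1% lay beyond counting error, with 16.8% higher and 11.3% lower, and 2.17% were past 1.5-fold (1.42% higher, 0.745% lower). The 2 of 9 is near that background.

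CDH11 stood at 2165 normalized counts with knockdown against 1613 without, so the treated library was the higher. The ratio was 1.34 (interval 1.26 to 1.43). A ratio that high was found for 545 genes, or 4.10% of those tested, and for 23 of the 4465 genes (0.515%) whose mean lay within 2-fold of that of CDH11. In the authors' deposited table its adjusted p-value was 0.184. FN1 had 15067 and 13901 normalized counts, a ratio of 1.08 (interval 1.06 to 1.11) that 24.0% of tested genes reached.

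VIM and ZEB1 differed little between the knockdown library and its control. VIM had 50739 and 50246 normalized counts, a ratio of 1.01 (interval 0.997 to 1.02). ZEB1 had 2049 and 2110, a ratio of 0.971 (0.914 to 1.03). ZEB2 had 502 and 557, a ratio of 0.90 (0.797 to 1.02), and SNAI2 had 699 and 652, a ratio of 1.07 (0.962 to 1.19). The interval of each of these 4 ratios stayed inside 1.5-fold on both sides. The remaining genes had too few reads for that. CDH1 had 51.7 and 34.2 normalized counts, a ratio of 1.51 with an interval from 0.962 to 2.40. SNAI1 had 16.9 and 30.2, a ratio of 0.560 (0.290 to 1.05), and CDH2 had 33.8 and 29.2, a ratio of 1.16 (0.685 to 1.97). By these counts, a difference of CDH1, SNAI1 or CDH2 was not detectable at this depth. With FPKM the CDH1 ratio was 1.63, and its interval, rescaled from that of the reads, left out 1.

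In Ca1a with TMEM126A overexpression, SNAI2 and VIM were lower than in the control. Of the 10 genes, 8 had a mean of at least 20 normalized counts. SNAI2 and VIM were lower beyond counting error, none was higher, and 6 were within it. The background over 12111 tested genes was 34.3% beyond counting error, with 18.1% higher and 16.2% lower, and 2.59% past 1.5-fold (1.27% higher, 1.32% lower). The 2 of 8 is not above that background, and SNAI2 was the 1 gene of the 8 past 1.5-fold.

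SNAI2 stood at 2203 normalized counts with overexpression against 3385 without. The ratio was 0.651 (interval 0.617 to 0.687), or 1.54-fold lower (1.46 to 1.62). As low a ratio was found for 179 genes, 1.48% of those tested, and for 5 of the 2985 genes (0.168%) with a mean within 2-fold of that of SNAI2. In the authors' deposited table SNAI2 had an adjusted p-value of 0.0179, 1 of 24 genes under 0.05 among 18801. That p-value came from 1 library per group and compares the libraries. VIM had 5449 and 6551 normalized counts, a ratio of 0.832 (0.802 to 0.862), or 1.20-fold lower. As low a ratio was found for 9.09% of tested genes, and for 47 of 1366 (3.44%) of like mean. The authors' deposited table gave it an adjusted p-value of 1.

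CDH1, a target of SLUG repression in other settings, stayed within counting error beside the lower SNAI2. It stood at 11920 normalized counts with overexpression against 11778 without, a ratio of 1.01 (interval 0.987 to 1.04). FN1 had 328 and 352, a ratio of 0.932 (0.799 to 1.09), and TWIST1 had 108 and 129, a ratio of 0.837 (0.642 to 1.09). SNAI1 had 46 and 62, a ratio of 0.742 (0.495 to 1.10). ZEB1, with 32 and 33, had a ratio of 0.970 (0.577 to 1.63), and ZEB2, with 20 and 27, one of 0.741 (0.394 to 1.37). CDH2 had 6 reads in each library, and CDH11 had 1 and 0, too few to compare. Of the 8 genes that passed the filter, 7 had a ratio under 1, and the median log2 ratio was -0.26 against 0.01 over all tested genes. In the knockdown, 6 of 9 had a ratio above 1, with a median of 0.10 against 0.01. Whether the 2 comparisons differ was not tested, since each is a pair of single libraries in its own line.

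**Figure D3:**
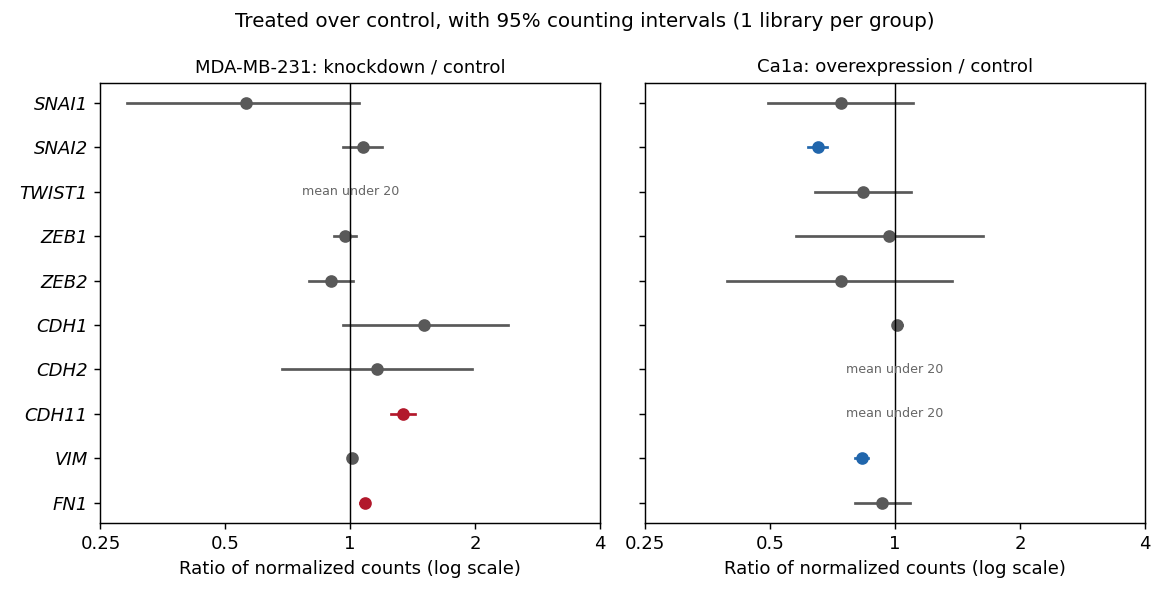
Ratio of treated over control normalized counts for each gene in the knockdown (MDA-MB-231) and the overexpression (Ca1a), on a logarithmic axis, with bars for 95% counting intervals. In the overexpression, SNAI2 at 0.651 and VIM at 0.832 lie below 1 with their whole intervals, and in the knockdown CDH11 at 1.34 and FN1 at 1.08 lie above it.

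**Figure D4:**
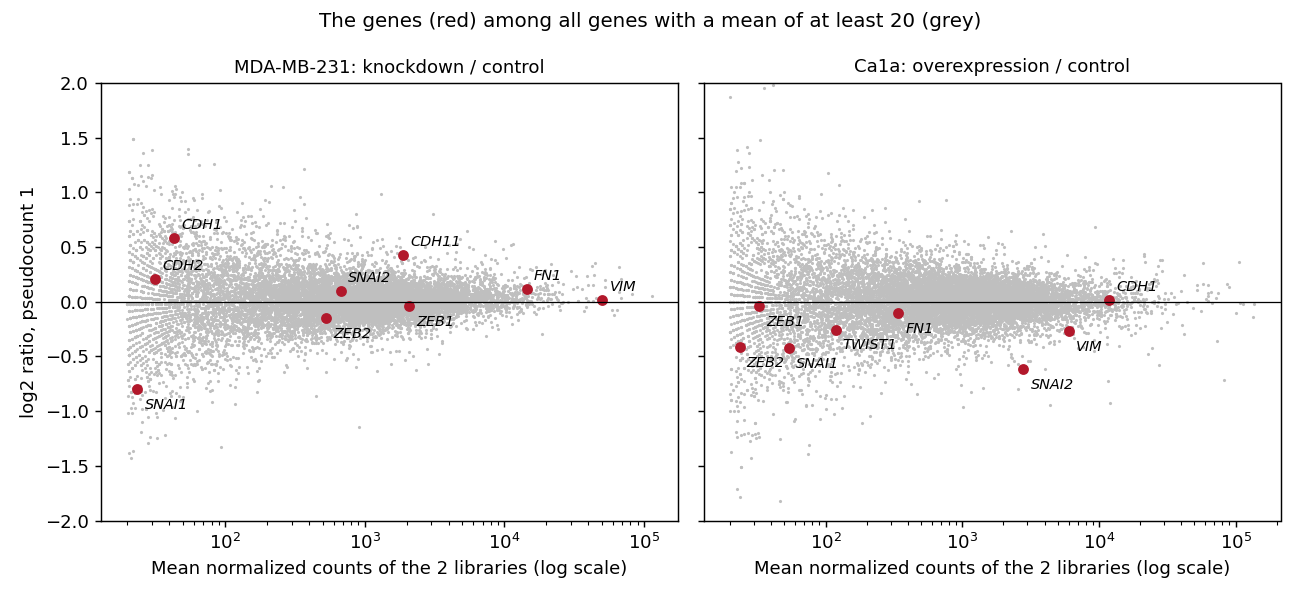
Log2 ratio of each tested gene against its mean normalized counts (logarithmic axis), in grey, with the genes described here marked by name. The vertical axis ends at 2 in both directions, which leaves out 1 gene in the knockdown and 4 in the overexpression; SNAI2 lies near the lower edge of genes of its mean in the overexpression, and CDH11 near the upper edge in the knockdown.

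Genes of the 7 related lists differed by less than 1.6-fold in the knockdown where beyond counting error. The list counts stand against a background of 16.8% of tested genes higher and 11.3% lower, which depends on scaling: of all genes beyond counting error, 59.7% were higher as deposited and 41.6% when scaled by total reads. Among 9 further EMT transcription factors that passed the filter, 5 were higher beyond counting error and 4 within it, with a median log2 ratio of 0.11 against 0.01 over all genes. The 5 became 3 under each of the other scalings and with FPKM. SOX4 stood at 127 normalized counts against 83.5, a ratio of 1.52 (interval 1.15 to 2.03). ID1, a dominant-negative partner of helix-loop-helix factors, had 2106 and 1410, a ratio of 1.49 (1.40 to 1.599). Among 11 catenins and turnover genes, 4 were higher, 2 lower and 5 within. JUP had a ratio of 1.33 (1.253 to 1.41) and ARVCF, a p120-family catenin, one of 0.677 (0.480 to 0.948). The cadherin CDH24 had a ratio of 1.13 and was the 1 of 3 other classical cadherins beyond counting error.

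In the knockdown, more list members were higher than lower among epithelial and among mesenchymal genes. Over all genes tested that held as deposited, but with scaling by total reads more were lower. Among 15 epithelial genes that passed, 5 were higher, 2 lower and 8 within, and among 18 mesenchymal genes 7 were higher, 2 lower and 9 within. With scaling by total reads these counts were 5, 2 and 8, and 7, 3 and 8. ELF3, an epithelial ETS factor, had a ratio of 1.42 (interval 1.15 to 1.76) and CLDN7, a claudin, one of 1.26 (1.14 to 1.38). S100A4 had 1.31 (1.26 to 1.37) and TNC, the matrix protein tenascin-C, 1.29 (1.21 to 1.38), while TAGLN, an actin-binding protein, had 0.723 (0.623 to 0.837). Of 11 fibronectin receptor and assembly genes, 6 were higher, 2 lower and 3 within, also with scaling by total reads. The fibronectin receptor subunit ITGB1 stood at 32783 normalized counts against 27006, a ratio of 1.21 (1.19 to 1.23). SDC2 had a ratio of 1.23 (1.10 to 1.38), and LTBP1, a binding protein of latent TGF-beta, one of 1.28 (1.18 to 1.39). Of 30 regulators, 7 were higher, 2 lower and 21 within counting error, and 5, 4 and 21 with scaling by total reads. USP27X, a deubiquitinase of SNAIL, had a ratio of 1.32 (1.08 to 1.62).

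In the overexpression the list counts stand against a background of 18.1% of tested genes higher and 16.2% lower. Of 8 further EMT factors that passed, none was higher, 4 were lower and 4 within, with a median log2 ratio of -0.13 against 0.01 over all genes, and the counts were the same under each scaling. SOX4 had a ratio of 0.784 (interval 0.704 to 0.873) and FOXC1, a forkhead factor, one of 0.883 (0.814 to 0.958). The fibronectin receptor subunit ITGA5 had 7806 and 10663 normalized counts, a ratio of 0.732 (0.711 to 0.754). LTBP1 had a ratio of 0.696 (0.614 to 0.789) and TNC one of 0.671 (0.575 to 0.782). Of 8 fibronectin receptor and assembly genes, 2 were higher, 4 lower and 2 within, and of 16 mesenchymal genes 3 were higher, 5 lower and 8 within. FAP, a cell-surface protease, was among the higher, at 1.603 (1.16 to 2.23).

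Epithelial genes went both ways in the overexpression, with 7 of 22 higher, 5 lower and 10 within. OVOL1 had 69 and 128 normalized counts, a ratio of 0.539 (interval 0.396 to 0.728), and ELF3 had 1596 and 1113, a ratio of 1.43 (1.33 to 1.55). MARVELD2, tricellulin, had 45 and 27, a ratio of 1.67 (1.01 to 2.79). CDH3, which with 0.954 was the 1 of 3 other classical cadherins beyond counting error, was lower, and of 11 catenins and turnover genes 2 were higher, 2 lower and 7 within, with the lower from 2 to 4 over the scalings and FPKM. Of 30 regulators, 2 were higher, 8 lower and 20 within, with 4 higher and 8 lower by FPKM. The TGF-beta ligands TGFB1 and TGFB2 were beyond counting error in opposite directions. TGFB1 had 58 and 123 normalized counts, a ratio of 0.472 (0.339 to 0.649), and TGFB2 had 124 and 62, a ratio of 2.0 (1.46 to 2.76). USP27X had a ratio of 0.581 (0.340 to 0.974).

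**Figure D5:**
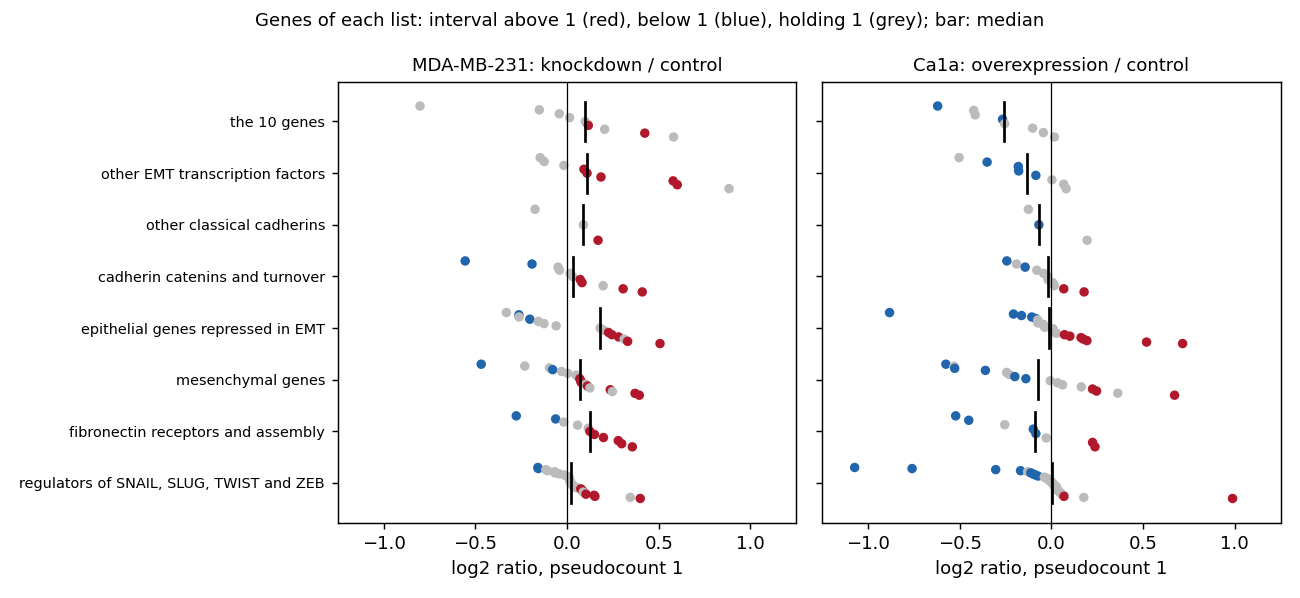
Log2 ratio of treated over control normalized counts (with 1 added) for each gene of the 10 and of the 7 lists that passed the filter, in the knockdown and the overexpression; red, blue and grey points have intervals above, below and holding a ratio of 1, and bars mark the median of each row. The list medians lie close to 0 in both comparisons. They run from 0.02 to 0.18 in the knockdown and from -0.13 to 0.00 in the overexpression. In the row of the 10 genes the median is 0.10 in the knockdown and -0.26 in the overexpression.

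Other genes followed the same course over the 4 libraries. Likeness was measured as the root mean square difference of log2(FPKM + 0.1), each gene centred on its own mean, among 11348 candidates, for the 7 genes that passed the filter in both comparisons. The nearest to CDH1 was CDH3 (difference 0.291), followed by KRT15, a basal keratin. The nearest to FN1 was CITED2 (0.0247), followed by ZEB1 itself (0.0546). VIM was nearest to FZD7, a WNT receptor (0.0390), ZEB1 to LRRC20 (0.0324), ZEB2 to BHLHB9 (0.0292) and SNAI1 to FLJ44511 (0.0974). With 4 libraries and 2 lines, most of each course is the difference between the lines.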

How the data were processed

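Total RNA of 4 cell cultures was sequenced, 1 library each. The submitters' processing notes list the tools DESeq, HTSeq, Cufflinks and HISAT2 with hg38 and GRCh38.p5. The sources used here do not state versions, roles or the strand setting. The Ca1a table deposited by the authors holds raw whole-number counts, named base means in the file header. For MDA-MB-231 the deposited base means are a signal, reads divided by a size factor; every value was a whole multiple of the smallest within a tolerance of 1e-06, so the multiple was used as the read number. Each deposited table adds the authors' fold change (a ratio), its log2 value, a p-value and an adjusted p-value. A further deposited table holds the authors' FPKM of the 4 libraries, of unstated denominator.

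Ratios carry exact conditional binomial (Clopper-Pearson) and levels exact Poisson intervals at 95%. The tables count reads without molecular identifiers, so these are not independent molecules. Intervals and the floor of 3 reads cover counting error only. A gene was tested if its mean reached 20 normalized counts, or 1 FPKM between controls. Treated over control, it was called where the interval left out 1. Between the controls, genes were counted by the fold threshold alone, without an interval. The size rules used a pseudocount of 1 (counts) or 0.1 (FPKM). Such log2 ratios understate changes of low genes. The intervals and calls were run on Poisson counts simulated from the means of each comparison. That checks the code alone, since such counts hold no variation between cultures.

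The 10 genes (a choice made by name), the 7 related lists and the 6 marker lists were chosen with earlier results of these data known. List genes were named by rule: up to 3 per list and comparison with the largest absolute log2 ratio, plus 2 nearest genes per member and the markers. DSP, CLDN4 and ACTA2, and the genes of the closing observations, were chosen after their values were seen. Some genes that the rule names are not reported here. Symbols were matched to Entrez IDs, and gene positions come from GENCODE release 29 on GRCh38. Alternatives were FPKM, scaling by total reads, median ratio or TMM (edgeR 4.0.16, R 4.3.3), pseudocounts, filters, thresholds and a 99% interval. The scalings of the list counts were added after seeing the data. Scripts ran in python 3.11.15 (scipy 1.17.1, numpy 2.4.6, matplotlib 3.10.9, pandas 2.3.3).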

Additional observations from a re-analysis of the deposited data

How the results depend on the processing

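Among the 10 genes, those called in the main setting kept their direction under all alternatives run. The knockdown count of 2 genes beyond counting error became 4 with FPKM (CDH1, CDH11 and FN1 higher, VIM lower) and 4 with scaling by total reads (CDH11 and FN1 higher, ZEB2 and VIM lower). VIM had a knockdown ratio of 0.981 with FPKM and 0.987 with total reads. The knockdown count past 1.5-fold, 0, became 1 with FPKM (CDH1) and 1 at the lower threshold tried (CDH11). The overexpression count past 1.5-fold, 1, became 0 at a 2-fold threshold. Other counts stayed within 1.5 times. Scaling by total reads moved the share of higher among all knockdown calls from 59.7% to 41.6%, while the median of all genes moved by less than 0.1 on the log2 scale. FPKM of the controls scaled to a median ratio of 1 shifted all log2 ratios by -0.21. Of the values of single genes, 34 of 36 in the knockdown, 32 of 32 in the overexpression and 11 of 16 between the controls stayed within counting error under the alternatives. The values of TWIST1 and CDH11 between the controls could not leave it, because 0 reads in 1 control left their intervals open on 1 side. The log2 ratio of CDH11 was 6.395 with FPKM and 9.601 with reads scaled to the library total. No paired analysis was possible because each group held 1 library, and for the same reason no library could be left out. Depth limits TWIST1, CDH2, SNAI1 and CDH1 in MDA-MB-231, and CDH11, CDH2, ZEB1 and ZEB2 in Ca1a.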

Other observations

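Beside ZEB1 and ZEB2, a host transcript of a microRNA that targets them stood among the genes that differed most between the lines; it was looked up after other values had been seen. MIR205HG, the host gene of miR-205, had 1 read in the MDA-MB-231 control and 8475 in the Ca1a control (0.0577 and 190.5 FPKM). Of 11363 genes, 3 differed as far in that direction, MIR205HG included. It had 0 reads in the knockdown library, and in the overexpression library 8089 normalized counts against 8475, a ratio of 0.954 (interval 0.926 to 0.984). The mature microRNA was not measured here. Its RefSeq sequence (chr1:209432166-209432187 on GRCh38.p14, plus strand) has the seed, bases 2 to 8, in capitals.
hsa-miR-205-5p: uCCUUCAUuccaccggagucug

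The antisense neighbour of ZEB1, also chosen after values were seen, did not share the difference between the lines. ZEB1-AS1 had 212 reads in the MDA-MB-231 control and 249 in the Ca1a control (3.83 and 4.53 FPKM), a ratio in reads scaled to the library total of 0.877 (interval 0.727 to 1.06), where ZEB1 had 65.5 (46.5 to 95.4). In RefSeq the nearest pair of their start bases, chr10:31319216 for ZEB1 and chr10:31319095 for ZEB1-AS1, lies 121 bases apart. The sources used here do not state whether counting used strand, so reads of the 2 genes where they overlap cannot be told apart. In the knockdown ZEB1-AS1 had 185 normalized counts against 213, a ratio of 0.867 (0.708 to 1.06), and in the overexpression 238 against 249, a ratio of 0.956 (0.797 to 1.15).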
